A study of Bos taurus with 6 samples.

Results

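The 10 respiratory chain genes considered here are carried by the mitochondrial genome, and were read from raw counts of longissimus thoracis (LT) muscle of 6 steers. The 10 members are ND1, ND2, ND3, ND4 and ND5 (complex I), CYTB (complex III), COX1, COX2 and COX3 (complex IV) and ATP6 (ATP synthase). They were taken by symbol from a list that was set with earlier results of these data known, out of 22839 different symbols in the counts, and all 10 passed the filter on low counts that left 15039 tested rows. RefSeq's gene table for ARS-UCD2.0 lists 37 genes on the bovine mitochondrial genome, of which 13 encode proteins. All 13 protein genes were in the counts, so that ND4L, ND6 and ATP8 are given beside the members, whereas 0 of the mitochondrial rRNA and tRNA genes were found under the names of that table.

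The steers were Hanwoo (Korean native cattle) on commercial feed and differed in the number of fine marbling particles (NFMP), which are small flecks of fat counted in an image of the ribeye. The high-NFMP group held steers 3-8, 10-8 and 10-9, at 32.5, 33.8 and 34.5 months of age, and the low-NFMP group held steers 3-1, 3-3 and 10-16, at 37.8, 33.7 and 35.4 months. Each steer gave 1 library. The comparison asks how muscle RNA differs between steers with many and with few fine marbling particles. In the paper, the sequenced high-NFMP steers also had a higher marbling score and a larger ribeye area. These traits cannot be told apart from NFMP here.

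The mitochondrial genome is a small circle that is copied into long RNA precursors, from which tRNAs are cut out to release the mRNAs between them. Its protein genes encode core subunits of the complexes that pass electrons to oxygen (I, III and IV) and of ATP synthase, whereas complex II and all other subunits come from nuclear genes. Muscle is rich in mitochondria, with more in slow oxidative than in fast glycolytic fibres. Most mitochondrial mRNAs carry a poly(A) tail, and the 3′ mRNA method used here primes on that tail.

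Libraries held between 16283873 and 17192750 counts. Markers of skeletal muscle (ACTA1, CKM, MB, TTN, MYH1, MYH2 and MYH7) took between 10.07% and 11.98% of a library, while 4 erythrocyte markers together took at most 0.000405% and HBB was at 0 in steers 3-1 and 3-3. Trimmed mean of M-values (TMM) factors lay between 0.9155 and 1.083, lowest in steer 10-8 and highest in steer 3-3, which were also the steers with the largest and the smallest share of member counts. In bulk muscle, fewer cells of a type and less RNA per cell cannot be told apart.

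The 10 members took a larger share of the library in all 3 high-NFMP steers than in the low-NFMP steers. Their counts summed to 17.53%, 19.05% and 16.06% of the library in steers 3-8, 10-8 and 10-9, and to 14.53%, 12.10% and 14.50% in steers 3-1, 3-3 and 10-16. The groups did not overlap, with steer 10-9 the lowest of the high and steer 3-1 the highest of the low group. The means were 17.55% ± 1.496 (SD, n = 3) and 13.71% ± 1.395 (SD, n = 3), a difference of 0.36 on the log2 scale of shares (1.28-fold). With 3 steers on each side an exact permutation p cannot fall below 0.1, and no p is given for a sum over chosen genes. The 95% Wilson interval of a single share was narrow, for example 17.51% to 17.55% in steer 3-8, and covers counting error only. Without steer 3-3 the log2 difference was 0.27, the smallest with any steer left out. It was 0.40 among the steers whose label starts with 3 (1 high, 2 low) and 0.27 among those whose label starts with 10 (2 high, 1 low).

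**Figure D1:**
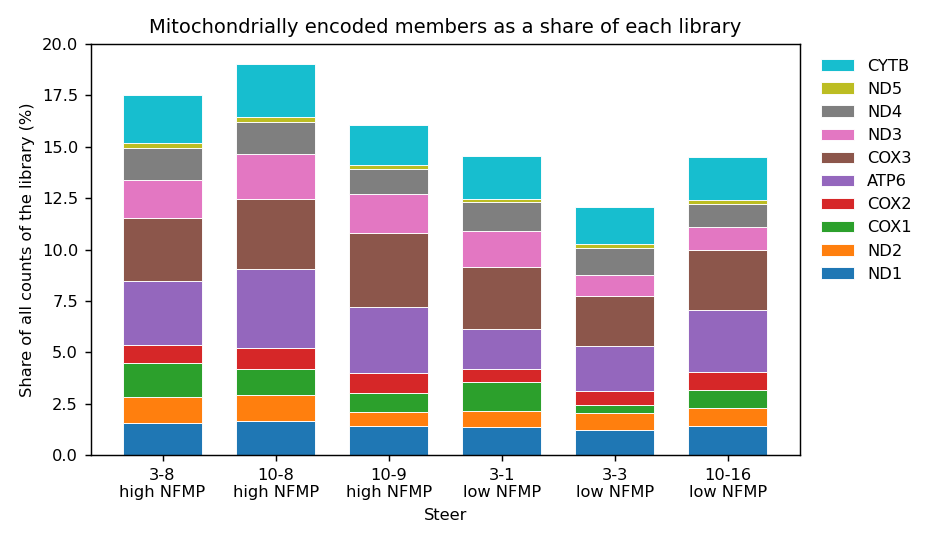
Stacked bars give the share of all counts of a library (%, y axis) taken by each of the 10 members in each steer (x axis), without error bars since a bar is 1 library. Bars of the high-NFMP steers end between 16.06% and 19.05% and those of the low-NFMP steers between 12.10% and 14.53%.

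By complex, the share of the 3 members of complex IV was 5.54%, 5.68% and 5.53% in the high-NFMP steers and 5.05%, 3.51% and 4.71% in the low-NFMP steers, without overlap. The high-NFMP steers were close to each other here (5.58% ± 0.081, SD, n = 3) and the low-NFMP steers spread more widely (4.42% ± 0.808, SD, n = 3). The 5 members of complex I took 6.52%, 6.93% and 5.40% against 5.50%, 4.58% and 4.73%, and CYTB, the complex III member, took 2.33%, 2.60% and 1.95% against 2.06%, 1.83% and 2.08%. Both of these overlapped between the groups, because steer 10-9 fell below steer 3-1. ATP6 alone took 3.14%, 3.85% and 3.18% against 1.93%, 2.18% and 2.98%, without overlap.

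Members were among the most counted genes of the muscle. Ranked by counts within a library, COX3 stood between places 2 and 4, ATP6 between 3 and 6 and CYTB between 5 and 7 in the 6 libraries. ND5 was the least counted member, between places 39 and 56, and COX1 moved the most, from place 8 in steer 3-8 to place 28 in steer 3-3. ATP6 was the most counted member in steers 3-8, 10-8 and 10-16 and COX3 in the other three. In normalized counts (counts scaled with TMM to a common library size), the means over 6 steers ran from 518849 ± 89994 (SD, n = 6) for COX3 to 35122 ± 7983 (SD, n = 6) for ND5. Only ND5 stood apart in that order, since each of the other neighbours in it overlapped.

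Normalized counts were also divided by gene length in the RefSeq table. Reads of a 3′ method do not grow in number with transcript length, so this scale favours short genes and cannot rank genes by transcript number. On this per-kilobase scale ND3, a gene of 346 bases, came first with a level of 806170 ± 254904 (SD, n = 6), followed by ATP6 at 717721 ± 211140 and COX3 at 664340 ± 115229. These levels overlapped with each other, and all lay above CYTB at 318024 ± 57617. The lowest levels per kilobase were those of COX1, the longest complex IV member with 1545 bases, at 119386 ± 48179, and of ND5, with 1821 bases, at 19287 ± 4384. ND5 lay below all other members in every library on both scales, in counts listed under its symbol. Where the reads of its transcript fell was not tested.

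The members were higher in the high-NFMP group on average, led by ND3, ATP6 and COX1, but none reached an adjusted p below 0.05. In edgeR's quasi-likelihood test, 3 of 10 (30%) were higher in the high-NFMP group at an unadjusted p below 0.05, against 5.73% of all tested genes, and 0 of 10 were lower, against 5.74%. With a fold change above 2 in addition, 0 of 10 passed, against 3.9% of all tested genes. After Benjamini-Hochberg adjustment, 0 of 10 were below 0.05, against 0.685%. All 10 fitted log2 fold changes were above 0, as were 51.9% of all tested genes, and their median was 0.45 against 0.02 over all tested genes. The members share 1 genome and its precursor RNAs, so that these counts are not 10 independent observations. The paper's methods name quantile normalization of the counts, done in other software. Under quantile normalization with limma, 9 of 10 were above 0 and 0 had an unadjusted p below 0.05. That last count was also 0 without steer 10-8 and 0 without steer 3-3.

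**Figure D2:**
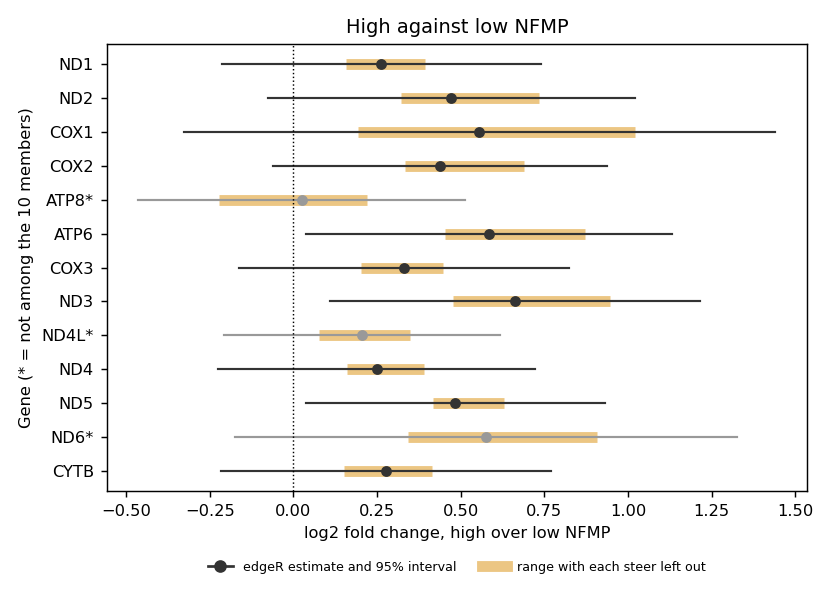
Points give the edgeR log2 fold change of high over low NFMP (x axis) for each mitochondrial protein gene in genome order (y axis), with thin lines for the 95% interval and broad bands for the range when each steer is left out. All points lie above 0, from 0.03 for ATP8 to 0.66 for ND3, and the intervals of ND3, ND5 and ATP6 do not reach 0.

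Among the 5 complex I members, ND3 and ND5 were higher in all 3 high-NFMP steers. ND3, a small membrane subunit near the ubiquinone site, had 307176, 401003 and 317382 normalized counts in steers 3-8, 10-8 and 10-9, and 293946, 157937 and 196165 in steers 3-1, 3-3 and 10-16. The groups were apart, with steer 3-1 close to steer 3-8 and steers 3-3 and 10-16 well below the others. The means were 341854 ± 51478 (SD, n = 3) and 216016 ± 70144 (SD, n = 3), and the log2 fold change was 0.66 with a standard error (SE) of 0.26 (unadjusted p = 0.022, edgeR adjusted p = 0.34). The unadjusted p was 0.0737 without steer 10-8, 0.113 without steer 3-3 and 0.0646 without steer 10-16. Under quantile normalization with limma the log2 fold change was 0.38 (unadjusted p = 0.1).

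ND5, which encodes a large proton-pumping subunit, had 43460, 46122 and 33274 normalized counts in the high-NFMP steers, and 27262, 27431 and 33186 in the low-NFMP steers. The groups were apart only narrowly, because steer 10-9 lay just above steer 10-16. The log2 fold change was 0.48 (SE 0.21, unadjusted p = 0.0357, edgeR adjusted p = 0.402). The unadjusted p rose to 0.0572 without steer 3-8, 0.0907 without 10-8, 0.123 without 3-1, 0.105 without 3-3, 0.199 with age as a term and 0.0831 under quantile normalization with limma.

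ND2, another pumping subunit, had 215932, 229647 and 117992 normalized counts in the high-NFMP steers, and 128660, 129253 and 148376 in the low-NFMP steers. Steer 10-9 was the lowest of all 6, while the other high-NFMP steers were the highest. The log2 fold change was 0.47 (SE 0.26, edgeR adjusted p = 0.515), and without steer 10-9 it was 0.73 with an unadjusted p of 0.00763. It was 0.31 with age as a term and 0.23 under quantile normalization with limma.

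ND1, which helps to form the ubiquinone site, had 255466, 308261 and 236309 normalized counts against 226778, 188740 and 251012. ND4, a pumping subunit like ND2 and ND5, had 253524, 287581 and 204169 against 226892, 208629 and 191376. Groups overlapped for both genes, with steer 10-8 the highest of the 6 in each. The log2 fold changes were 0.26 (SE 0.22, edgeR adjusted p = 0.684) for ND1 and 0.25 (SE 0.22, adjusted p = 0.699) for ND4. That of ND1 was 0.16 without steer 3-3 and 0.14 under quantile normalization with limma. That of ND4 was 0.16 without steer 10-8 and 0.39 without steer 10-9, and turned to -0.06 under quantile normalization with limma.

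CYTB, the catalytic subunit of complex III that passes electrons from ubiquinol, had 385057, 477522 and 329138 normalized counts in the high-NFMP steers and 338106, 284252 and 361212 in the low-NFMP steers. The groups overlapped, since steer 10-9 was below steers 3-1 and 10-16. The means were 397239 ± 74938 (SD, n = 3) and 327857 ± 39491 (SD, n = 3), and the log2 fold change was 0.28 (SE 0.23, edgeR adjusted p = 0.681). It was 0.15 without steer 10-8, 0.18 without steer 3-3 and 0.025 under quantile normalization with limma.

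In complex IV, COX1 carries the site where oxygen is reduced, COX2 takes electrons from cytochrome c and COX3 stabilizes the core. COX1 was the member that varied most between libraries. It had 268764, 231456 and 158413 normalized counts in the high-NFMP steers, and 232062, 64685 and 151329 in the low-NFMP steers. The highest library held 4.15 times the lowest, which was steer 3-3, whereas that ratio was 1.5 for ND4. The coefficient of variation of COX1 was 25.6% in the high- and 56.0% in the low-NFMP group. The log2 fold change of COX1 was 0.56 (SE 0.40, edgeR adjusted p = 0.641), with an interval from -0.33 to 1.44. It was 0.19 without steer 3-3 and 1.02 (unadjusted p = 0.0131) without steer 3-1.

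COX2 had 144011, 189479 and 162906 normalized counts against 105442, 104611 and 156414, and only steer 10-16 of the low-NFMP group lay within the range of the high. Its log2 fold change was 0.44 (SE 0.23, unadjusted p = 0.0809, edgeR adjusted p = 0.503). The unadjusted p was 0.0425 without steer 3-8, 0.0211 without steer 10-16 and 0.0461 by DESeq2. The log2 fold change was 0.69 without steer 10-16 and 0.29 under quantile normalization with limma. COX3 had 501975, 622137 and 610572 against 492116, 376244 and 510052. Steers 3-8, 3-1 and 10-16 were close to each other, and the log2 fold change was 0.33 (SE 0.23, edgeR adjusted p = 0.626). It was 0.20 without steer 3-3, 0.54 with age as a term and 0.13 under quantile normalization with limma.

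ATP6, a subunit of the proton channel of ATP synthase, had 517384, 706780 and 535501 normalized counts in the high-NFMP steers, and 317473, 338157 and 517312 in the low-NFMP steers. Every high-NFMP steer was above every low-NFMP steer, but steers 3-8 and 10-16 were nearly equal. The means were 586555 ± 104511 (SD, n = 3) and 390981 ± 109894 (SD, n = 3), with a log2 fold change of 0.59 (SE 0.26, unadjusted p = 0.0373, edgeR adjusted p = 0.407). The unadjusted p was 0.128 without steer 10-8, 0.161 without 3-1, 0.127 without 3-3, 0.153 with age as a term and 0.0527 when levels were scaled to nuclear genes. Under quantile normalization with limma the log2 fold change of ATP6 was 0.23 (unadjusted p = 0.235). Groups did not overlap for ND3, ND5 and ATP6, 3 of 10 members, and every high-NFMP steer was above every low-NFMP steer for 7.97% of all tested genes.

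**Figure D3:**
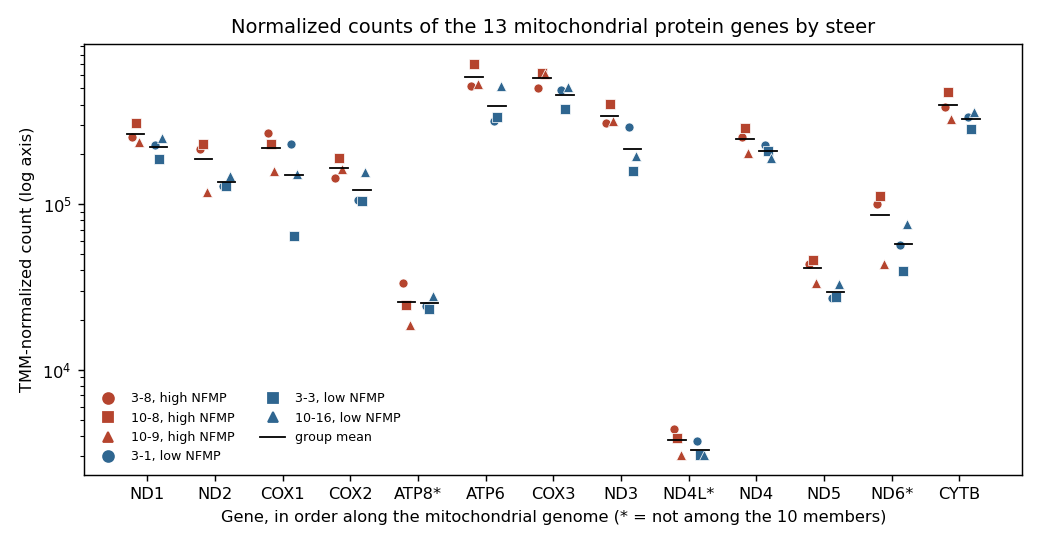
Points give the TMM-normalized count (log axis) of each steer for the 13 mitochondrial protein genes in genome order (x axis), red for high and blue for low NFMP, with black lines for the group means. Points of the groups overlap for most genes, COX1 shows 1 low-NFMP steer far down (64685), and ND4L lies far below all others.

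Age and NFMP group were not balanced, since the oldest steer, 3-1, was in the low- and the youngest, 3-8, in the high-NFMP group. With age as a term in the fit, ND3 (log2 1.10) and COX1 (log2 1.31) were the members with an unadjusted p below 0.05, both with a fold change above 2, and the smallest adjusted p of a member was 0.306 by edgeR. With a term for the leading number of the steer labels, the members at that p were again ND3, ND5 and ATP6.

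ATP8, ND4L and ND6 are the remaining protein genes of the genome. In the RefSeq table ATP8 shares 40 bases with ATP6, ND4L shares 7 bases with ND4 and ND5 shares 17 bases with ND6, and ATP8 and ATP6, like ND4L and ND4, lie on 1 mRNA. Counts on ATP6 were between 13.1 and 28.9 times those on ATP8, and counts on ND4 were between 57.7 and 74.6 times those on ND4L. ATP6 and ND4 are the later genes of these mRNAs. The ATP6 to ATP8 ratio was 15.4, 28.9 and 28.6 in the high-NFMP steers and 13.1, 14.4 and 18.6 in the low-NFMP steers, and the groups overlapped. ND6, which is encoded on the opposite strand from ND5, had between 1.31 and 2.44 times the counts of ND5. The strand setting of the counting is not stated in the sources used here. Counts on ND6 may therefore include reads from either strand along the whole gene, not only in the 17 shared bases. The log2 fold changes were 0.03 (SE 0.23, edgeR adjusted p = 0.978) for ATP8, 0.20 (SE 0.19, adjusted p = 0.721) for ND4L and 0.57 (SE 0.34, adjusted p = 0.563) for ND6. ND6 had 0.91 (unadjusted p = 0.00658) without steer 10-9 and 0.86 (unadjusted p = 0.0343) without steer 10-16, but 0.34 without 10-8 and 0.36 without 3-3. ND4L had 0.08 without steer 3-8 and 0.35 without 10-9. For ATP8 the sign turned under several settings, among them library totals alone (-0.03).

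Within the members, the mix of genes was also compared. ND1 made up 8.83%, 8.81% and 8.73% of the member counts in the high-NFMP steers and 9.49%, 10.04% and 9.98% in the low-NFMP steers. CYTB made up 13.31%, 13.64% and 12.16% against 14.15%, 15.12% and 14.35%. For both genes the high-NFMP steers were all below the low-NFMP steers, with an exact two-sided permutation p of 0.1, the smallest that 3 against 3 allows, and a Benjamini-Hochberg value of 0.5 over the 10 members. The other 8 members overlapped. COX1 ranged from 3.44% to 9.72% of the member counts and ATP6 from 13.29% to 20.56%.

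Levels of the members were positively correlated across the 6 libraries, by Pearson's r most closely for COX2 with ATP6 and for ND1 with CYTB and by Spearman's rho for COX2 with COX3. Over the 45 pairs, Pearson's r of log2 normalized counts (n = 6 steers) had a median of 0.751 and Spearman's rho a median of 0.6, and all 45 r were above 0. The exact permutation p of r was below 0.05 in 13 of 45 pairs and in 0 after Benjamini-Hochberg adjustment over the 45, with a smallest adjusted value of 0.125. All pairs share the library and its normalization, and how often pairs of other genes reach such values was not tested. Leaving out the 2 steers farthest from the median of the first gene left 4 steers of a narrower range in each pair and a median r of 0.229. When group means were removed the median r was 0.562, and 42 of 45 pairs remained above 0.

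For COX2 and ATP6, which lie close together on the genome with ATP8 between them, r was 0.987 (rho 0.886, exact permutation p of r = 0.00556, of rho = 0.0333, adjusted 0.125 and 0.25). It was 0.975 with group means removed and 0.926 without steers 3-1 and 3-3. Counts on ATP6 were between 3.01 and 3.73 times those on COX2, although each of these genes varied more than that between libraries. ND1 and CYTB are the first and the last protein gene in the order of the RefSeq table. No other protein gene lies between them on the circle, but their distance is not given here. For this pair r was 0.977 (rho 0.943, exact permutation p of r = 0.00556, of rho = 0.0167, adjusted 0.125 and 0.25), and 0.864 without steers 10-8 and 3-3. The ratio of CYTB to ND1 stayed between 1.39 and 1.55. For COX2 and COX3 rho was 1.0 (exact permutation p = 0.00278, adjusted 0.125) and r was 0.843 (exact permutation p = 0.0181, adjusted 0.135). At the other end, ND2 and COX3 had an r of 0.329, which was -0.256 without steers 3-8 and 10-8. COX1 had the lowest median r with the other members (0.605) and ND1 the highest (0.825).

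**Figure D4:**
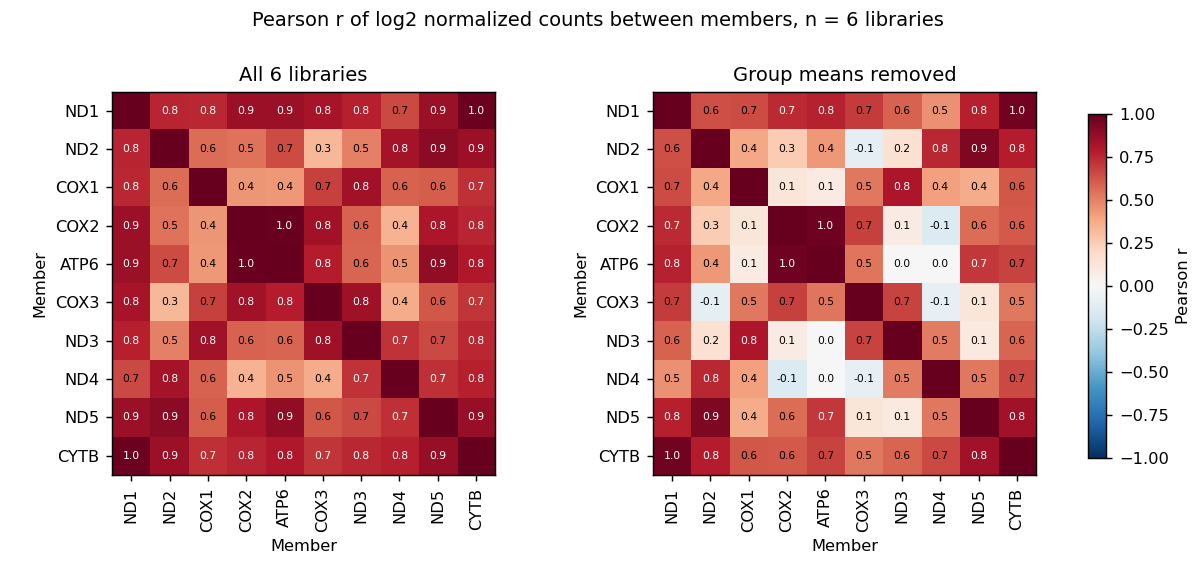
Each cell gives Pearson's r of log2 normalized counts between the members named on both axes over 6 libraries, from blue for negative to red for positive, as measured (left) and with group means removed (right). All 45 pairs are above 0 on the left, with the strongest for COX2 with ATP6 (0.987), and 42 of 45 are above 0 on the right.

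Outside the mitochondrial genome, 10857 tested genes with a mean of at least 50 counts were ranked by Pearson's r of their log2 normalized counts with the summed member counts over the 6 steers. The 5 highest were HS3ST5 (0.992), LOC104970645 (0.991), CYREN (0.980), SMPD1 (0.977) and GSTM1 (0.973). HS3ST5, a heparan sulfate sulfotransferase, had 1031, 1512 and 849.5 normalized counts in the high-NFMP steers and 640, 422 and 668 in the low-NFMP steers. Like the summed members, these genes were highest in steer 10-8 and lowest in steer 3-3. With 6 points and so many genes ranked, such values are a description and carry no p.

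Nuclear genes of the same chain lay around 0. Of 77 nuclear subunits tested, 0 were higher and 5 lower with high NFMP at an unadjusted p below 0.05, against 5.73% and 5.74% of all tested genes, so that the lower count is near the background. Their median log2 fold change was -0.01. Together they took 1.24%, 1.48% and 1.62% of the library in the high-NFMP steers and 1.42%, 1.57% and 1.58% in the low-NFMP steers, with overlap. Member counts per nuclear chain count were 14.13, 12.89 and 9.93 against 10.21, 7.73 and 9.16. Steer 10-9 lay below steer 3-1, so this ratio overlapped, with means of 12.31 ± 2.16 (SD, n = 3) and 9.03 ± 1.25 (SD, n = 3).

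These 5 genes were spread over the complexes. They were 1 of 37 nuclear complex I subunits (NDUFB1), 2 of 4 complex II subunits (SDHD and SDHC), 1 of 9 complex III subunits (UQCRB), 1 of 12 complex IV subunits (COX7C) and 0 of 15 ATP synthase subunits. SDHD, a membrane anchor of succinate dehydrogenase, had 538, 799 and 385 normalized counts in the high-NFMP steers and 888, 1473 and 986 in the low-NFMP steers. The groups were apart, and its log2 fold change was -0.96 (SE 0.27, edgeR adjusted p = 0.168). UQCRB had a log2 fold change of -0.47 (adjusted p = 0.346) and NDUFB1 one of -0.57 (adjusted p = 0.256). These counts, in either direction, moved with the settings. With age as a term complex II had 1 and complex III had 0, complex II had 1 with RLE size factors or at least 10 counts in all libraries, and complex I had 3 with library totals alone or with a term for the leading label number and 2 under quantile normalization with limma. With a steer left out they moved as well. Complex I had 4 without steer 3-8 and 2 without 10-8 or 10-9, complex II had 1 without 3-8, 10-9, 3-1 or 10-16, and complex III had 0 without 10-9 or 10-16. Complex IV had 3 without 3-8 and 0 without 3-3 or 10-16, and ATP synthase had 1 without 10-8.

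Of 15 tested genes of mitochondrial transcription and replication, 5 were lower with high NFMP at an unadjusted p below 0.05 (TFB2M, MTERF2, MTERF3, TWNK and TFAM), against 5.74% of all tested genes. Higher at that p was 1 (PRIMPOL, a primase-polymerase), against 5.73%, and 0 passed after adjustment. The log2 fold change was above 0 for 5 of the 15, with a median of -0.20. Summed, the list of 16 took between 0.0156% and 0.0190% of the library in the high-NFMP steers and between 0.0213% and 0.0223% in the low-NFMP steers. TFB2M, the factor that helps mitochondrial RNA polymerase to open a promoter, had 235, 220.0 and 168 normalized counts in steers 3-8, 10-8 and 10-9, and 330.1, 330.4 and 409.9 in steers 3-1, 3-3 and 10-16. Its log2 fold change was -0.78 (SE 0.21, unadjusted p = 0.00256, edgeR adjusted p = 0.146). Without steer 3-8, 3 genes of this list were at an unadjusted p below 0.05 in either direction, and with age as a term 2 were, against 6 with all steers and no such term.

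TFAM, TWNK, PRIMPOL, POLRMT and LRPPRC were named for their roles after their values were seen. TFAM, which packs the mitochondrial genome and takes part in starting transcription, had 166, 143 and 202 normalized counts against 216, 254 and 252, with the high-NFMP steers all below the low (log2 fold change -0.50, unadjusted p = 0.0419, edgeR adjusted p = 0.416). POLRMT, the mitochondrial RNA polymerase, had 41.5, 65.6 and 102 against 53.6, 57.4 and 56.5, and the groups overlapped. LRPPRC, which stabilizes mitochondrial mRNAs, had 588, 557 and 548 against 639, 740.3 and 764, and its log2 fold change of -0.34 had an unadjusted p of 0.0745.

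Of 21 genes of mitochondrial RNA processing and stability, 2 were lower at an unadjusted p below 0.05 (against 5.74% of all tested genes) and 0 were higher (against 5.73%), with a median log2 fold change of -0.25. Both, TRMT10C and KIAA0391, encode parts of the enzyme that cuts the 5′ ends of tRNAs out of the precursor. TRMT10C had 185, 199 and 97.3 normalized counts in the high-NFMP steers and 269.8, 347 and 292 in the low-NFMP steers, with a log2 fold change of -0.92 (SE 0.27, edgeR adjusted p = 0.172). KIAA0391 had a log2 fold change of -0.55 (adjusted p = 0.408). HSD17B10, which encodes the third protein of that enzyme, had a log2 fold change of 0.41 (unadjusted p = 0.067). Without steer 3-8, 6 genes of this list had an unadjusted p below 0.05, and without 3-1, 3-3 or 10-16 only 1 had.

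Of 10 tested translation and insertion factors, 1 was lower (TSFM, an elongation factor, log2 fold change -0.66, edgeR adjusted p = 0.317) at an unadjusted p below 0.05 and 0 were higher, against 5.74% and 5.73% of all tested genes. That count was 0 without steer 3-8, 10-9 or 3-1 and 0 with age as a term. Of 10 regulators of mitochondrial biogenesis, 2 were higher and 0 were lower at that p, against the same 5.73% and 5.74%. Only 4 of the 10 had a log2 fold change above 0, and the median was -0.09. Their summed share went the other way, between 0.05249% and 0.06475% of the library in the high-NFMP steers. In the low-NFMP steers it was between 0.04315% and 0.05155%. PPARGC1A, a coactivator of nuclear genes for mitochondrial proteins, had 2849.6, 5121 and 4058 normalized counts in the high-NFMP steers and 2849.6, 1730.4 and 1764 in the low-NFMP steers. Steers 3-8 and 3-1 were equal to 1 decimal, and the log2 fold change was 0.92 (SE 0.25, edgeR adjusted p = 0.145). ESRRG, a nuclear receptor that works with that coactivator, had 2329.7, 2314 and 1802 against 1276, 1195 and 1536, without overlap (log2 fold change 0.69, adjusted p = 0.141). GABPB1, a subunit of a factor that activates nuclear genes for mitochondrial proteins, had 123, 85.6 and 120.3 against 183, 147 and 145, with the high-NFMP steers all below the low (log2 fold change -0.53, unadjusted p = 0.0531, adjusted p = 0.445). Without steer 3-8, 4 of these regulators had an unadjusted p below 0.05.

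**Figure D5:**
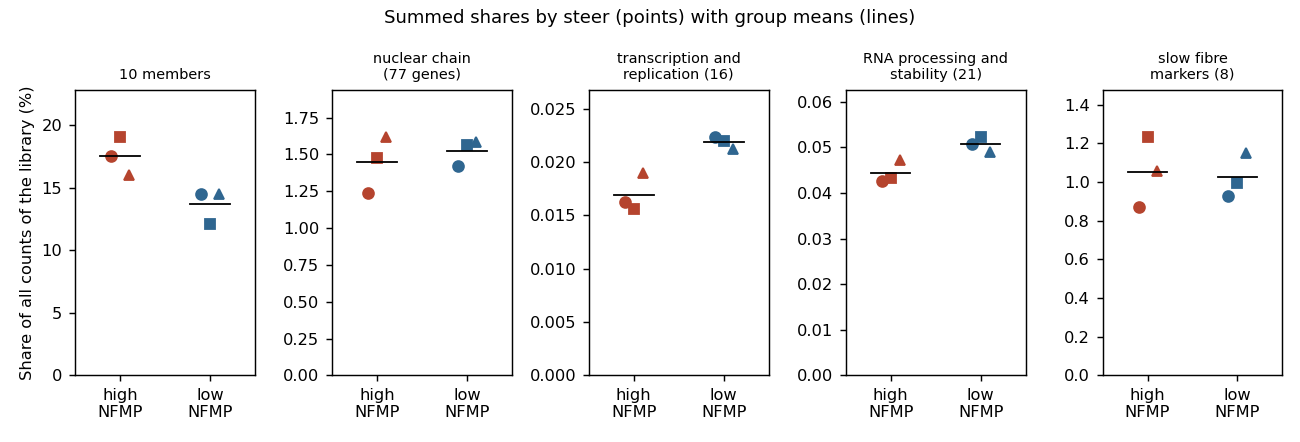
Points give the summed share of a library (%, y axis of each panel from 0, with its own scale) for each steer by NFMP group, and black lines give the group means of 3 steers. The 10 members are higher in all high-NFMP steers, the transcription and replication list and the RNA processing list are lower in all of them, and the nuclear chain and slow fibre panels overlap.

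Fibre type and other cells were checked beside the members, with 5.73% of all tested genes higher and 5.74% lower at an unadjusted p below 0.05. The 8 slow fibre markers took between 0.871% and 1.23% of the library in the high-NFMP steers and between 0.926% and 1.15% in the low-NFMP steers, and the 9 fast fibre markers between 2.24% and 2.96% and between 2.37% and 3.12%. Both overlapped, and 1 of the 8 slow markers was lower (MYL3, log2 fold change -0.78, edgeR adjusted p = 0.145), while 0 of 9 fast markers passed an unadjusted p of 0.05. Adipocyte markers differed more. Of 8, 4 were higher at that p and 0 lower, with a median log2 fold change of 0.62, among them CIDEC at 0.89 and ADIPOQ at 0.63. Their summed share was between 0.0366% and 0.0837% in the high-NFMP steers, highest in steer 3-8, and between 0.0323% and 0.0456% in the low-NFMP steers, so that it overlapped. Of 6 endothelial markers 1 was higher (CLDN5), and of 5 tested macrophage and lymphocyte markers and 1 tested erythrocyte marker 0 passed. Without steer 3-8, only 1 adipocyte marker passed, and 2 slow fibre, 2 fast fibre, 2 skeletal muscle, 2 endothelial and 2 macrophage and lymphocyte markers did. With age as a term, 0 adipocyte, 0 endothelial and 2 slow fibre markers passed. The part of these cells in the members' values was not tested.

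The 18S ribosomal RNA gene RN18S1, a highly counted RNA outside the members, took 4.71%, 4.31% and 2.80% of the library in the high-NFMP steers and 6.46%, 4.33% and 4.64% in the low-NFMP steers. These overlapped, and the log2 fold change was -0.32 (SE 0.27, edgeR adjusted p = 0.685). It was -0.10 without steer 10-9, -0.12 without steer 3-1 and -0.13 with age as a term. With RN18S1 and TTN, the most counted other gene, taken out of the total, the summed members differed by 0.33 on the log2 scale of shares in place of 0.36.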

How the data were processed

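Total RNA from LT muscle of 6 steers was made into 3′ mRNA libraries by the authors (the kit is named SENSE 3′ in the paper and Quant-Seq in the labels). The authors deposited raw counts per gene symbol, with 23015 rows. The methods state Tophat2 and HTSeq in one place and Bowtie2 with unique and multiple alignments in another, and the submitters' processing notes name Bowtie2 and bedtools. Which of these made the counts, and whether strand was used, is not stated in the sources used here. Nuclear copies of mitochondrial sequence may therefore share reads with the members. The methods name UMD3.1, so the RefSeq table (ARS-UCD2.0) served for names, gene order and lengths and no coordinates are given.

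Analysis used edgeR 4.0.16 under R 4.3.3. Its default filter (minimum count 10, minimum total 15) kept 15039 rows and at least 99.85% of the counts of a library. TMM normalization, robust quasi-likelihood fits and Benjamini-Hochberg adjustment over all tested rows followed, with 3 high- against 3 low-NFMP steers. The biological coefficient of variation was 25.1%. Labels do not state separate cultures or batches, and each library is 1 steer. Alternatives were each steer left out in turn, a term for age or for the leading label number, RLE size factors, scaling by totals or to nuclear genes, no filter, at least 10 counts in all libraries, DESeq2 1.42.0, and limma 3.58.1 on quantile-normalized log2(count + 1). The procedure was tested on simulated data.

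The members and gene lists were chosen with earlier results of these data known. Named genes were the members, the other mitochondrial protein genes, the genes of each list with the smallest p (up to 3), the 5 genes most like the summed members and RN18S1, with exceptions stated where they occur. Shares of a library carry 95% Wilson intervals for counting error only, since PCR copies cannot be told from separate molecules without identifiers.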

Additional observations from a re-analysis of the deposited data

How the results depend on the processing

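The number of members at an adjusted p below 0.05 was 0 under all 15 alternatives. The number at an unadjusted p below 0.05 was 3 with all steers, 0 under quantile normalization with limma and between 0 and 4 with each steer left out (0 without 10-8 and without 3-3), and the cause was not tested. The number also past a fold change of 2 was 2 with age as a term and between 0 and 1 with each steer left out (1 without steer 3-1). The median log2 fold change of the members was between 0.23 and 0.58 over the alternatives, against 0.45. The fold change of ND4 was -0.056 under quantile normalization with limma. That of ATP8 was -0.156 with age as a term, -0.033 with library totals alone, -0.004 without a filter and -0.077 under quantile normalization with limma, and between -0.223 and 0.219 with each steer left out (-0.223 without 3-8, -0.002 without 3-1 and -0.027 without 3-3). The log2 difference of the summed share was 0.325 without RN18S1 and TTN in the total, 0.441 against nuclear chain counts, 0.376 without COX3 and between 0.27 and 0.42 with each steer left out. The labels pair no steer with another one to one. With a term for the leading number of the label, which both groups share, 3 members were at an unadjusted p below 0.05 and 0 at an adjusted one. An exact permutation test of 3 high- against 3 low-NFMP steers cannot fall below a p of 0.1. The effect of depth on the members' calls was not tested.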
